A study of Mus musculus with 656 samples.

Results

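The late transcript programme under an inhibitor of IKKβ was examined as the change between 360 and 15 min of TNF-α in mouse 3T3 fibroblasts, an established embryonic line, that had received SC-514 at 100 µM. The samples were chosen by their labels for stimulus, inhibitor concentration and time. They are 4 libraries at 360 min and 4 at 15 min, 8 of the libraries of the series, which form 41 groups of 4, and 4 sample records share each library. Cells had 1 h of SC-514 before TNF-α at 10 ng/ml in both groups. Inhibitor and TNF-α were both present for longer at 360 than at 15 min, no group had inhibitor alone, and none was left without stimulus to the later times, so time under TNF-α and time under SC-514 cannot be told apart. The libraries set beside these are 4 at 360 and 4 at 15 min of TNF-α at 25, 50 and 0 µM SC-514, 4 and 4 of IL-1β (1 ng/ml) with 100 µM SC-514, and 4 without stimulus or inhibitor. The vehicle of the 0 µM groups is not stated. Titles number both stimuli, while of these the descriptions number only the IL-1β columns, with the number that titles give to TNF-α. Unstimulated columns carry the number that titles give to IL-1β, in titles and descriptions alike. The names TNF-α and IL-1β follow the stimulus label, so a swap at deposit would exchange them throughout. TagSeq, which reads the 3' ends of polyadenylated transcripts, gave counts per gene.

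The libraries at 360 min held 1846457 to 2020867 counts and those at 15 min 1275762 to 1611633, and 3 counts equalled 1.415 to 1.53 and 1.78 to 2.305 CPM, which are counts scaled to a common library size. Mitochondrial transcripts were 0.574% to 0.766% of counts over the 8 libraries. Of 16 fibroblast markers only Lum was at 0 counts in both groups, and their summed level was 7346 to 7980 CPM at 360 min and 8788 to 9438 CPM at 15 min. Of 22 markers of other cell types in the table, 6 were at 0 at 360 min and 8 at 15 min, and their sum was 111 to 124 CPM against 182 to 216 CPM. Lpl made most of that sum, and the leukocyte marker Ptprc had 6 counts at 360 min and 3 at 15 min over the 4 libraries. In bulk RNA, fewer cells of a type and less RNA per cell cannot be told apart. The library labelled 0 µM, 15 min, number 4 stood apart from its group. Its 35 tested interferon-stimulated genes summed to 16998 CPM, against 6830 to 8274 CPM in the other 3 libraries of its group. The other 98 libraries taken before 120 min, those 3 included and 1 very shallow library aside, had 5400 to 9766 CPM. The series had 2 very shallow libraries, both at 50 µM. They held 12191 counts at 30 min of IL-1β and 3839 at 120 min of TNF-α. Comparisons of the late change with that at 0 µM are given with and without it.

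TNF-α binds its receptor and activates the IKK complex, which marks IκB proteins for destruction and frees NF-κB to enter the nucleus. NF-κB drives chemokines, adhesion molecules and its own inhibitors, among them Nfkbia and Tnfaip3, which end the first wave. A second layer follows in many cells, as newly made interferon and other factors act on STAT and IRF proteins, which bind the interferon-stimulated response element. SC-514 competes with ATP at IKKβ.

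The promoters shown are of 3 strongly raised genes that interferon induces and of 2 NF-κB targets, 1 that rose and 1 that fell. They were picked by hand to show the motifs known for these layers. For each gene the first window with a match is given, so every sequence holds its motif by choice. The sequences are the 250 bases before the start of the gene in RefSeq on GRCm38.p6, read 5′ to 3′ on the gene's strand. Each match on either strand is in capitals. Rsad2 lies at chr12:26456453-26456702 (minus strand), Ifit1 at chr19:34640639-34640888 (plus strand) and Cxcl10 at chr5:92348890-92349139 (minus strand). Capitals mark the core of the interferon-stimulated response element, searched as GAAA, any 2 bases and GAAA. Cxcl1 lies at chr5:90890995-90891244 (plus strand) and Nfkbia at chr12:55492648-55492897 (minus strand). Here capitals mark the NF-κB motif, searched as GGG, any 2 bases and TTTCC.
Rsad2: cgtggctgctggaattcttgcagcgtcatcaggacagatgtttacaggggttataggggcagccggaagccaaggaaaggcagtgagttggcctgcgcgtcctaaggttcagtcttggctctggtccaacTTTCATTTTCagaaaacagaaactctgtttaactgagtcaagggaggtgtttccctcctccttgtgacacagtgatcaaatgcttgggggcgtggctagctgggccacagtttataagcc
Ifit1: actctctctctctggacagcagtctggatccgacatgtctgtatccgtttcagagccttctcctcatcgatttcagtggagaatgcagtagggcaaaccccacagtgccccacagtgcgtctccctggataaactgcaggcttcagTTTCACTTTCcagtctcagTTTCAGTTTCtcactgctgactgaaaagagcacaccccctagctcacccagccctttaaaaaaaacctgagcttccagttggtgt
Cxcl10: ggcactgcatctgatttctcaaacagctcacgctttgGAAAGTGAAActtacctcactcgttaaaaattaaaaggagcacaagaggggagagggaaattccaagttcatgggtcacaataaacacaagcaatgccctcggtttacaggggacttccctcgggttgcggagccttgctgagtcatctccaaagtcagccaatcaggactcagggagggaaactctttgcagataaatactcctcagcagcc
Cxcl1: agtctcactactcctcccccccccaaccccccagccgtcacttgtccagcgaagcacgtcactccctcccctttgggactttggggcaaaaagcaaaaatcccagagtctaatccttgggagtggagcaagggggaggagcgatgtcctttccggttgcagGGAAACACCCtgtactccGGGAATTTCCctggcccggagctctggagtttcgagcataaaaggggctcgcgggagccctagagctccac
Nfkbia: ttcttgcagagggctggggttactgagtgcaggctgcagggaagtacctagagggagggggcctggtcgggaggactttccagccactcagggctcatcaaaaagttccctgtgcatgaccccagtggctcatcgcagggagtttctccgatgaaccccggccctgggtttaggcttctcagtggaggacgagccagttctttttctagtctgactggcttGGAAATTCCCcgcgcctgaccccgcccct

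The element begins 120 bases before the start of Rsad2, 104 and 85 bases before that of Ifit1, and 213 bases before that of Cxcl10. The NF-κB motif begins 89 and 71 bases before the start of Cxcl1 and 29 bases before that of Nfkbia. Over windows of 300 bases that reach 50 bases past the start, 8497 of the 10766 genes tested had a promoter. Of 103 genes that rose at least 2-fold and had one, 24 held the interferon-stimulated element (23.3%), against 3.98% of all. Of 142 that fell at least 2-fold, 7 held it (4.93%). The AP-1 motif TGANTCA was in 16.5% of the risers and 7.75% of the fallers, against 5.97% of all, and the NF-κB motif in 5.83% and 1.41%, against 2.08%. The antioxidant response element TGACNNNGC stood in 16.5% and 15.5%, against 17.2%, and the CArG box, which serum response factor binds, in 0.971% and 2.82%, against 1.48%. By list, the interferon-stimulated element was in 14 of 30 interferon-stimulated genes with a promoter, the NF-κB motif in 7 of 17 cytokine genes, the antioxidant element in 7 of 17 NRF2 genes and the CArG box in 4 of 27 immediate early genes. The AP-1 motif was in 8 of the 17 cytokine genes, 5 of the 30 interferon-stimulated genes, 4 of the 17 NRF2 genes and 0 of the 27 immediate early genes, of which 8 held the antioxidant element. A match describes letters in a window and not binding.

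Between 360 and 15 min at 100 µM, 1039 genes rose and 1157 fell at an adjusted p under 0.05, which is 20.4% of 10766 genes tested (9.65% higher, 10.7% lower; edgeR quasi-likelihood test, Benjamini-Hochberg over all genes). With all libraries in the fit the balance of directions depended on scaling. RLE factors gave 1350 higher and 964 lower, a share of 58.3% higher against 47.3% here. Without the 2 very shallow libraries, RLE factors gave 961 higher and 1274 lower (43% higher). The scaling used here then gave 927 and 1290 (41.8%). The rises were larger at the top of the scale: 30 genes rose and 24 fell over 4-fold, while 138 rose and 201 fell over 2-fold. All 4 libraries at 360 min lay above all 4 at 15 min for 1158 genes (10.8%) and below them for 1220 (11.3%). Counts of genes called in the lists below are to be read against the 9.65% higher and 10.7% lower.

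The change came late. Against the same 15 min libraries, 10 genes were called at 30 min (0.0929%, all higher), 93 at 60 min (0.864%, with 0.836% higher and 0.0279% lower) and 292 at 120 min (2.71%, with 2.46% higher and 0.251% lower). With libraries blocked by their number, 109 and 368 were called at 60 and 120 min. Of the 1039 genes higher at 360 min, 975 had their highest mean of the 5 times there and 58 at 120 min. Of the 1157 lower genes, 1150 had their lowest mean at 360 min. Their highest mean was spread over 15, 30, 60 and 120 min, at 278, 312, 290 and 277 genes.

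Interferon-stimulated genes moved in one direction: of 35 tested, 16 rose and 0 fell, with a median log2 change of 0.62 against 0.01 over all genes. At 120 min 1 of them passed the test against 15 min, where 2.46% of all genes rose. Yet all 35 fitted changes were positive, with a median of 0.46 against 0.00 over all genes. Rsad2, which makes an antiviral nucleotide, had 244, 43.4, 1325 and 482 CPM in libraries 1 to 4 at 360 min, against 19.6, 19.2, 5.70 and 27.1 CPM at 15 min (log2 change 4.86 ± 0.73 SE, adjusted p 5.1e-08). All 4 late libraries lay above all 4 early ones, and library 3 was highest and library 2 lowest. Its mean stayed at 17.9 ± 8.91, 35.5 ± 2.95, 20.3 ± 8.73 and 46.4 ± 17.5 CPM at 15, 30, 60 and 120 min (SD, n = 4) and was 524 ± 564 CPM at 360 min. Cmpk2, the kinase gene beside it on chromosome 12 and not in the list, had 87.5, 31.7, 431 and 182 CPM at 360 min and 10.1, 9.99, 13.9 and 13.3 CPM at 15 min (3.93 ± 0.61, adjusted p 1.3e-07). The late libraries kept the order of Rsad2, with no overlap between groups.

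Ifit1, a list member that binds viral RNA lacking cap methylation, had 413, 152, 1274 and 754 CPM at 360 min, against 58.1, 76.8, 38.0 and 88.6 CPM at 15 min (3.31 ± 0.51). Cxcl10, a chemokine for T cells that interferon induces and that is in the cytokine list, had 359, 117, 1617 and 780 CPM at 360 min, against 57.5, 71.4, 31.7 and 98.8 CPM at 15 min (3.47 ± 0.55). In both genes the groups did not overlap, and the lowest late library was number 2. Ifit3 (3.06 ± 0.54) and its near copy Ifit3b (3.53 ± 0.61) rose, although reads of such copies could be split between them. Outside the list, Iigp1, an interferon-induced GTPase, rose by 2.49 ± 0.47, and Cd274, which encodes the checkpoint ligand PD-L1, by 3.07 ± 0.57, and the member Ifit2 rose by 2.36 ± 0.48. Cgas, also outside the list and the sensor of DNA in the cytosol, had 70.7, 61.9, 97.9 and 86.8 CPM at 360 min and 27.3, 30.0, 30.4 and 27.7 CPM at 15 min (1.46 ± 0.14, adjusted p 6.1e-17), a far narrower spread.

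The summed level of the 35 genes was 8587, 7343, 13950 and 10168 CPM at 360 min and 6778, 8665, 6345 and 6718 CPM at 15 min. These ranges overlap, and library 2 was the lowest late and the highest early one. Without library 3 at 360 min, 9 of the 35 were called, and outside the list Cxcl9 was not (adjusted p 0.0559). With the 8 libraries alone in the fit, 6 were called, and neither the member Ifit2 (adjusted p 0.113) nor Cmpk2 (0.0506), Iigp1 (0.0527) and Cd274 (0.0888) outside the list were. The list sum also varied at 360 min under IL-1β, at 9742 to 14631 CPM with 100 µM and up to 21072 CPM with 25 µM.

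**Figure D1:**
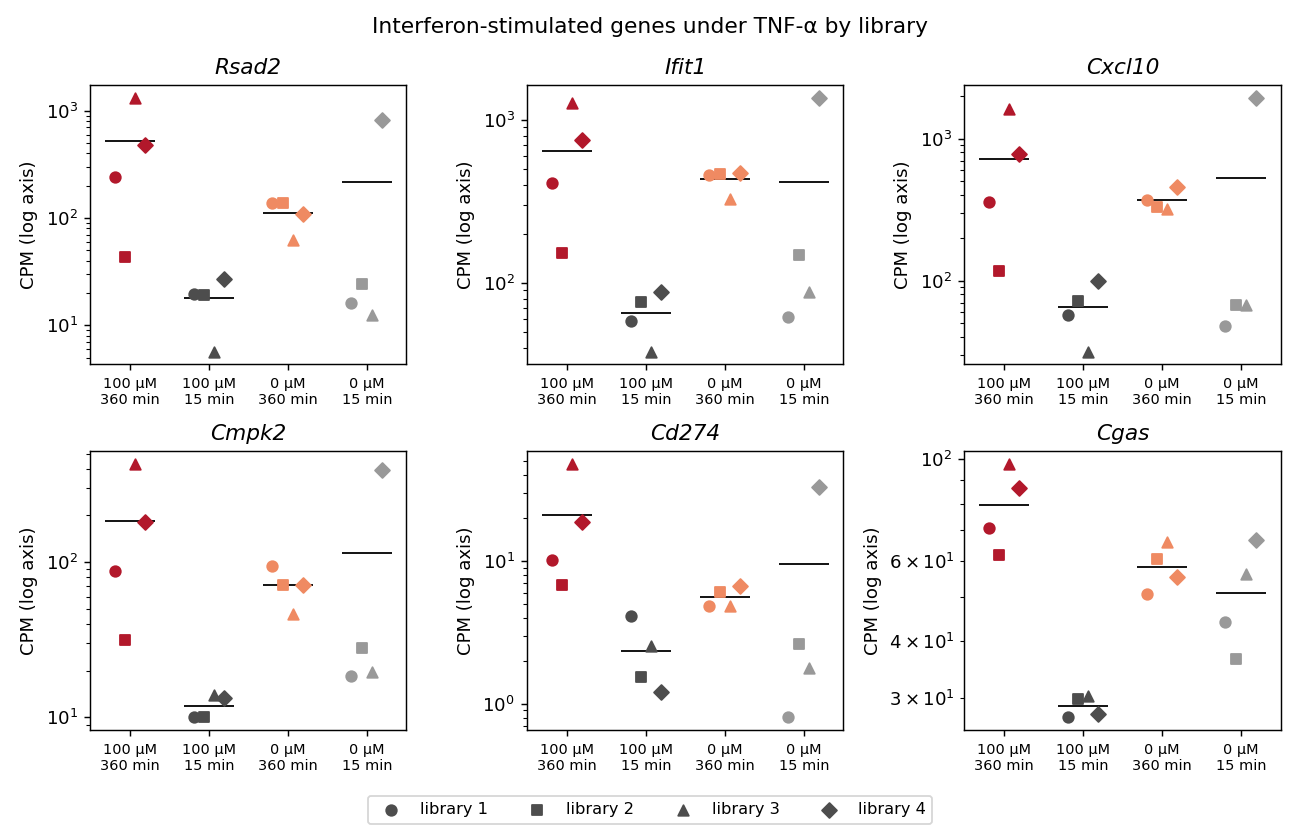
Level in CPM on log axes of 6 genes in each library of TNF-α with SC-514 at 100 µM and at 0 µM, at 360 and 15 min. Symbols give the library number and lines the mean. At 100 µM all late libraries lie above the early ones, with Rsad2 at 43.4 to 1325 CPM late, while library 4 at 0 µM and 15 min lies far above its group, at 819 CPM for Rsad2.

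Cytokine and chemokine genes moved in both directions: of 24 tested, 9 rose and 4 fell. Their median log2 change was 1.30, or 0.68 without 3 genes under 3 counts in both groups. Cxcl5, a neutrophil chemokine, had 123, 191, 185 and 202 CPM at 360 min, against 47.4, 67.6, 63.3 and 66.9 CPM at 15 min (1.52 ± 0.19, adjusted p 5.6e-11). Cxcl1, of the same family, had 94.7, 65.3, 83.2 and 67.0 CPM, against 27.8, 33.8, 18.4 and 28.3 CPM (1.52 ± 0.24). The groups did not overlap in either gene. Cxcl1 had been higher in between, and its means at 15, 30, 60, 120 and 360 min were 27.1 ± 6.41, 155 ± 24.4, 1165 ± 103, 818 ± 133 and 77.5 ± 14 CPM. Cx3cl1, a membrane-bound chemokine, rose by 1.62 ± 0.17 and Cxcl9, like Cxcl10 an attractant of T cells, by 2.82 ± 0.88 at 7.07 to 15.2 CPM.

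Among genes of few counts, Cxcl2 had 29 counts over the 4 late libraries and 1 over the early ones, a ratio of 22.3 with a 95% counting interval of 3.69 to 910. Il15, which sustains T and NK cells, had 47 and 2 counts, a ratio of 18.0 (4.73 to 153). Of the falling members, Lif, an IL-6 family cytokine, had 43.8, 29.7, 43.1 and 33.0 CPM at 360 min and 94.8, 112, 120 and 88.0 CPM at 15 min (-1.47 ± 0.23). Cxcl12, which retains haematopoietic cells, fell by 0.73 ± 0.08 on the log2 scale, Ccl9 by 0.53 ± 0.10 and Ccl7 by 0.56 ± 0.15, of which Ccl7 lost its call under 2 alternatives. The monocyte attractant Ccl2 had 818, 669, 1217 and 1064 CPM, against 912, 1151, 969 and 993 CPM (-0.09 ± 0.11, adjusted p 0.62), and Il6 had 0 to 14.2 CPM against 0.633 to 5.33 CPM (0.68 ± 0.69, adjusted p 0.54). Neither passed the test, and the groups overlapped.

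Of 22 NF-κB components and feedback genes tested, 2 rose and 5 fell, and the median log2 change was -0.08. Of all genes tested 9.65% rose and 10.7% fell, so the 2 rises are near the share of all genes. At 120 min 14 of them were called above their 15 min level, while 2.46% of all genes rose. Nfkbia, which encodes IκBα, had 190, 158, 161 and 141 CPM at 360 min, against 216, 228, 232 and 208 CPM at 15 min (-0.44 ± 0.14, adjusted p 0.016). All late libraries were lower, and the call was lost without library 4 at 360 min (adjusted p 0.0685). The means between show a full cycle, at 221 ± 10.8, 485 ± 66.5, 1816 ± 81.1, 780 ± 163.7 and 163 ± 20.5 CPM over the 5 times. Tnfaip3, the deubiquitinase A20, had means of 12.2 ± 2.59, 11.1 ± 0.918, 200 ± 19.5, 113 ± 39.7 and 5.85 ± 2.74 CPM, and its late change of -1.04 ± 0.40 did not pass the test (adjusted p 0.052). It was called lower under 7 of 15 alternatives, over which the adjusted p ranged over 0.0016 to 0.15. The subunit genes Rel (-0.72 ± 0.18) and Relb (-0.41 ± 0.12) fell and Nfkbib, for IκBβ, rose by 0.46 ± 0.15, a call lost under 3 alternatives. Nfkbiz (0.29 ± 0.20, adjusted p 0.33) and Ikbkb, the gene of the inhibited kinase (0.24 ± 0.15, adjusted p 0.27), did not pass.

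Of 22 adhesion, protease and effector genes, 9 rose and 6 fell, with a median of 0.11. Icam1, a ligand of leukocyte integrins, had 8.14, 6.33, 18.3 and 8.96 CPM at 360 min, against 1.78, 0.768, 0.633 and 1.2 CPM at 15 min (3.10 ± 0.50). It was higher still at 120 min, with a mean of 48.7 ± 3.94 CPM. Nos2, the inducible nitric oxide synthase, had 40 counts over the late libraries and 0 over the early ones, which is at least 10.2-fold higher when 3 counts in all are taken as the floor of the early group. Sod2, the mitochondrial superoxide dismutase, rose by 0.79 ± 0.07 and Timp1, an inhibitor of metalloproteinases, by 1.00 ± 0.14. F3, tissue factor, fell by 1.25 ± 0.17 on the log2 scale. Olr1, a scavenger receptor for oxidized lipoprotein outside the lists, had 32.1, 27.3, 22.8 and 28.3 CPM, against 2.37, 2.30, 1.90 and 6.02 CPM (3.07 ± 0.36, adjusted p 5.1e-12). The groups did not overlap, and its late libraries stood close together. Spock3, a matrix proteoglycan, rose by 2.46 ± 0.47.

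Most immediate early genes fell: of 35 tested, 25 fell and 0 rose, with a median of -0.72. They had been higher in between, with 22 called above their 15 min level at 60 min and 19 at 120 min. Over all genes 0.836% and 2.46% rose at these times. Egr2, a zinc finger factor, had 4.07, 3.90, 3.04 and 1.41 CPM at 360 min, against 27.8, 37.6, 54.4 and 34.3 CPM at 15 min (-3.60 ± 0.35, adjusted p 1.4e-15). Egr1 had 180, 106, 174 and 95.2 CPM, against 525, 576, 796 and 558 CPM (-2.15 ± 0.20). Nr4a1, an orphan nuclear receptor, had 27.5, 20.9, 28.4 and 25.0 CPM, against 119, 176, 144 and 121 CPM (-2.45 ± 0.24). In these genes every late library was below every early one. Dusp2, a MAP kinase phosphatase at 0.472 to 2.04 CPM late, fell by 3.10 ± 0.44 on the log2 scale, Fos by 2.17 ± 0.37, Junb, its AP-1 partner, by 1.77 ± 0.16, Ier2 by 1.5 ± 0.14 and Ier3 by 0.50 ± 0.13. The summed level of the list was 2109 to 2743 CPM at 360 min and 4498 to 5680 CPM at 15 min.

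Some falling genes had 15 min levels unlike those without inhibitor, Egr1 and Smad6 among them. The immediate early list summed to 4498 to 5680 CPM at 15 min with 100 µM and 2729 to 3483 CPM with 0 µM. Unstimulated cells had 2278 to 2559 CPM, and these ranges did not overlap. Egr1 averaged 614 ± 123 CPM at 15 min with 100 µM and 85.6 ± 19.9 CPM with 0 µM, where libraries 1 to 4 had 112, 74.2, 90.1 and 66.7 CPM. Smad6 averaged 69.9 ± 17.7 CPM with 100 µM and 14.3 ± 5.84 CPM with 0 µM, where the libraries had 5.62, 17.5, 17.8 and 16.4 CPM. At 360 min Egr1 averaged 139 ± 44.6 CPM with 100 µM and 40.7 ± 7.53 CPM with 0 µM, and Smad6 10.6 ± 3.29 and 11.5 ± 3.27 CPM, with 17.7 ± 1.35 CPM for Smad6 in unstimulated cells. At 15 min every library with 100 µM lay above every library with 0 µM in both genes. Hist2h3c1, a histone H3 gene whose polyadenylated form is read here, had 3.05, 1.46, 4.57 and 4.72 CPM, against 21.9, 20.7, 19.6 and 22.9 CPM (-2.59 ± 0.29), and 0.803 to 3.46 CPM at 15 min without inhibitor. Its near copy Hist2h3c2 fell by 2.27 ± 0.41 on the log2 scale, with the same caution on shared reads. Plin4, a lipid droplet protein gene, had 0 to 1.01 CPM late and 1.90 to 8.45 CPM early (-3.20 ± 0.61), Grhl1, an epithelial transcription factor, 0.472 to 1.46 and 4.22 to 7.60 CPM (-2.44 ± 0.54), and Pxdc1 1.89 to 2.92 and 7.60 to 14.5 CPM (-2.19 ± 0.37).

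**Figure D2:**
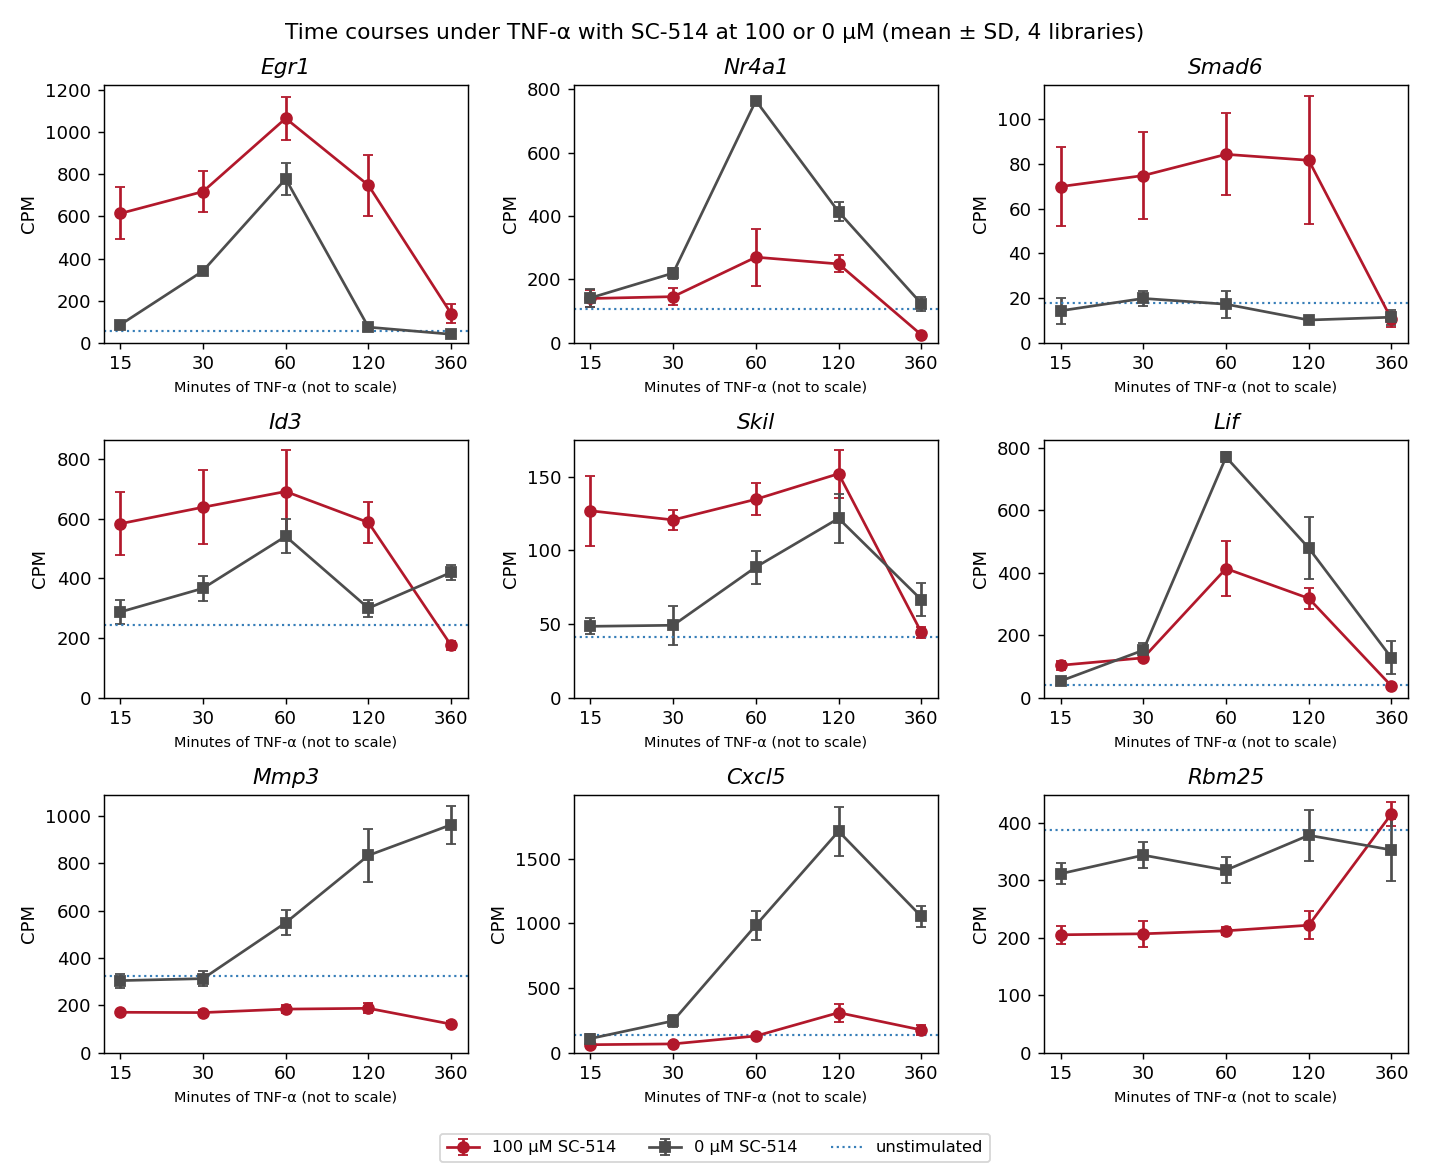
Mean level in CPM ± SD of 4 libraries for 9 genes over 15 to 360 min of TNF-α, with SC-514 at 100 µM (circles) or 0 µM (squares), and the unstimulated mean as a dotted line. Times are evenly spaced. Smad6 stays near 70 to 84 CPM until 120 min at 100 µM and is at 10.6 CPM at 360 min, while Mmp3 climbs to 964 CPM at 0 µM and ends at 121 CPM at 100 µM.

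BMP and TGF-β response genes had the lowest median of the lists, at -0.88, with 10 of 16 tested falling and 0 rising. Smad6, an inhibitory SMAD, had 12.2, 14.1, 6.59 and 9.43 CPM at 360 min, against 64.0, 50.7, 93.1 and 71.7 CPM at 15 min (-2.72 ± 0.31, adjusted p 2.5e-12). Id3, an inhibitor of bHLH factors, had 198, 171, 162 and 170 CPM, against 551, 561, 732 and 487 CPM (-1.73 ± 0.18). Groups were fully apart in both genes. Id2 fell by 2.15 ± 0.25, Id1 by 0.60 ± 0.13 and Skil, a repressor of SMAD signalling, by 1.52 ± 0.15 on the log2 scale. Atoh8, a bHLH factor that BMP raises in some cells, was not in the list and had 11.7, 10.7, 11.7 and 13.2 CPM, against 69.9, 60.7, 76.0 and 50.0 CPM (-2.43 ± 0.25).

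Matrix genes fell more often than they rose, with 11 of 22 tested lower and 2 higher and a median of -0.27. Ccn2, a matricellular growth factor, had 18.3, 9.74, 15.2 and 12.7 CPM, against 75.2, 83.0, 81.0 and 92.8 CPM (-2.57 ± 0.30). The groups did not overlap. Thbs1 fell by 1.07 ± 0.13, Thbs2 by 0.82 ± 0.10, the fibrillar collagen gene Col3a1 by 0.67 ± 0.12 and Lox, which cross-links collagen, by 0.47 ± 0.07 on the log2 scale. Edn1, the vasoconstrictor endothelin, fell by 2.21 ± 0.42. Of 15 contractile and actin genes 6 fell and 0 rose (median -0.24), among them Cnn2 (-0.61 ± 0.08), Zyx (-0.31 ± 0.07), Actg1 (-0.29 ± 0.06) and Actb (-0.24 ± 0.05). Of 14 fibroblast markers 10 fell and 0 rose (median -0.32), with Pdgfrb, the PDGF receptor, at -1.19 ± 0.11, Vim at -0.38 ± 0.06 and Col1a2 at -0.32 ± 0.05. Of 5 tested markers of other cell types 1 fell, the lipase gene Lpl (-1.0 ± 0.11). The fall in summed fibroblast markers moved with the matrix genes, some of which are in both lists, and its part in them was not tested.

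NRF2 antioxidant genes rose: of 23 tested, 13 were higher and 0 lower, with a median of 0.35. Slc7a11, the cystine importer, had 99.8, 120, 125 and 113 CPM at 360 min, against 39.7, 36.1, 37.4 and 28.9 CPM at 15 min (1.69 ± 0.14, adjusted p 1.3e-19). Txnrd1, thioredoxin reductase, had 480, 502, 470 and 478 CPM, against 287, 319, 256 and 262 CPM (0.78 ± 0.08). Both were without overlap. Gclm, for glutathione synthesis, rose by 0.87 ± 0.10 and Pgd, which yields NADPH, by 0.76 ± 0.08. Of 3 aryl hydrocarbon receptor genes 2 rose (median 0.43), Nqo1 (0.96 ± 0.17), also an NRF2 target, and Cyp1b1 (0.43 ± 0.14, lost under 3 alternatives). Of 12 ferritin and iron genes 3 rose, the transporters Slc11a2 (0.46 ± 0.11), Slc25a37 (0.48 ± 0.14) and Slc39a14 (0.36 ± 0.13), and 1 fell, Steap3 (-0.35 ± 0.12), with a median of 0.17. The calls of Slc39a14 and Steap3 were lost under 4 and 3 alternatives.

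Of 22 integrated stress response genes tested, 8 fell and 1 rose (median -0.18). Chac1, which degrades glutathione, fell by 1.19 ± 0.22, Ddit3, the factor CHOP, by 0.83 ± 0.15 and Trib3 by 0.74 ± 0.17 on the log2 scale, whereas the one riser was Slc7a11, shared with the NRF2 list. Of 18 endoplasmic reticulum chaperone genes, 6 rose and 1 fell (median 0.17). Creld2 rose by 0.49 ± 0.12, Sel1l by 0.35 ± 0.09 and Hspa5, the chaperone BiP, by 0.19 ± 0.06 (lost under 4 alternatives), while Herpud1, of the degradation machinery, had 50.4, 70.2, 69.5 and 55.6 CPM, against 129, 127, 135 and 141 CPM (-1.12 ± 0.14). Of 14 cytosolic heat shock genes 2 rose, Hspa1b (0.76 ± 0.21) and Dnajb4 (0.37 ± 0.14), and 2 fell, Cryab (-0.29 ± 0.10) and Bag3 (-0.24 ± 0.08), each with calls lost under some alternatives. The heat shock counts are near the 9.65% that rose and the 10.7% that fell among all genes.

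Sterol synthesis genes fell almost throughout, with 18 of 21 tested lower and 0 higher and a median of -0.55. Insig1, the sterol-regulated anchor of SCAP, had 49.9, 52.6, 34.5 and 47.2 CPM at 360 min, against 82.3, 104, 86.7 and 83.7 CPM at 15 min (-0.95 ± 0.15). Fdft1, squalene synthase, had 56.5, 61.9, 54.3 and 65.5 CPM, against 88.9, 121, 97.5 and 92.8 CPM (-0.74 ± 0.14). Every late library was below every early one in both. Fdps fell by 0.90 ± 0.17 and Sqle by 0.55 ± 0.11 on the log2 scale. The list sum was 1591, 1626, 1341 and 1416 CPM late and 2014, 2484, 1940 and 1974 CPM early. Glycolysis and hypoxia genes fell in 10 of 21, with 0 higher (median -0.25). Hk2, hexokinase, had 103, 102, 153 and 116 CPM, against 197, 271, 278 and 242 CPM (-1.06 ± 0.11), while Bnip3 (-0.94 ± 0.22), Ldha (-0.37 ± 0.07) and Pkm (-0.23 ± 0.06) also fell.

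Of 22 replication and G1/S genes 1 fell, thymidine kinase Tk1 (-0.84 ± 0.22), and of 22 mitosis genes 1 fell, Nusap1 (-0.51 ± 0.19), with medians of -0.08 and -0.15 and both calls lost under some alternatives. Of 31 proteasome genes 1 rose, Psma5 (0.23 ± 0.09), and of 20 aminoacyl-tRNA synthetase genes 2 rose, Wars (0.40 ± 0.11) and Farsb (0.28 ± 0.10), with medians of 0.04 and 0.00. Psma5 and Farsb lost their calls under 10 and 6 alternatives. Of 17 p53 targets 7 fell and 1 rose (median -0.16), with the stress cytokine Gdf15 at -1.5 ± 0.22, Mdm2 at -0.34 ± 0.09, the cell cycle inhibitor Cdkn1a at -0.32 ± 0.08 and Ccng1 at -0.24 ± 0.07. Of 19 survival and death regulators 6 fell and 2 rose (median -0.09). Bcl2 (-0.54 ± 0.17), Pim1 (-0.58 ± 0.18) and Bcl2l1 (-0.30 ± 0.09) fell, with calls lost under 2 or 3 alternatives each. Of 13 clock genes 5 fell and 0 rose (median -0.42), led by the repressors Bhlhe40 (-2.02 ± 0.15), which had 39.7, 45.3, 46.2 and 40.5 CPM against 147, 194, 196 and 161 CPM, Nfil3 (-1.15 ± 0.19) and Bhlhe41 (-1.14 ± 0.33). Cry2, of the core loop, was at -0.57 ± 0.19, a call lost under 4 alternatives.

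Without inhibitor fewer genes were called over the same interval of TNF-α, with 180 higher (1.67%) and 93 lower (0.864%), 2.54% in all. The 0 µM libraries were shallower than those at 100 µM, at 1030538 to 1275752 counts at 360 min and 1136532 to 1270805 at 15 min. The part of depth in the number of calls was not tested. Without library 4 at 15 min there were 201 (1.84% of 10902 tested) and 82 (0.752%), 2.6% in all. Of the 1039 risers at 100 µM, 83 also rose at 0 µM, which is 7.99% of the first list and 46.1% of the second, and 68 genes fell in both, 5.88% and 73.1%. Without library 4 these were 109 (10.5% and 54.2%) and 58 (5.01% and 70.7%). The late change itself differed between 100 and 0 µM in 573 genes (5.32%), 223 more positive (2.07%) and 350 more negative (3.25%) at 100 µM. Without library 4 these were 148 (1.36%) and 308 (2.83%), 4.18% in all.

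Mmp3, stromelysin, had the smallest adjusted p of the genes more negative at 100 µM. It had 110, 113, 139 and 120 CPM at 360 min and 176, 170, 163 and 174 CPM at 15 min with 100 µM (-0.50 ± 0.12), but 848, 1031, 985 and 991 CPM at 360 min and 302, 345, 274 and 298 CPM at 15 min with 0 µM (1.66 ± 0.11). It fell with the inhibitor and rose without it, and the difference was -2.16 ± 0.16 (adjusted p 2.0e-22) or -2.15 ± 0.165 without library 4. Lif (-2.71 ± 0.34), Id3 (-2.28 ± 0.27), Skil (-1.97 ± 0.25), Ccl9 (-1.39 ± 0.13) and the lipid phosphatase gene Plpp3 (-1.05 ± 0.13) were the other leading genes in that direction, with -2.70 ± 0.36, -2.30 ± 0.28, -1.92 ± 0.26, -1.48 ± 0.13 and -1.13 ± 0.14 in the same order without library 4. Among list members with a difference, 10 of 22 adhesion and effector genes, 10 of 35 immediate early genes, 8 of 16 BMP genes, 8 of 22 stress response genes, 7 of 21 glycolysis genes, 6 of 21 sterol genes and 5 of 24 cytokine genes were more negative at 100 µM, or 11, 11, 8, 7, 6, 4 and 6 without library 4. Over all genes 3.25% were more negative at 100 µM, or 2.83% without library 4.

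In the other direction stood Rbm25, a splicing factor, with 445, 412, 401 and 402 CPM at 360 min and 201, 185, 223 and 210 CPM at 15 min with 100 µM (1.02 ± 0.08). With 0 µM it had 312, 363, 310 and 426 CPM at 360 min and 290, 317, 304 and 333 CPM at 15 min, and the difference was 0.84 ± 0.12 (adjusted p 2.8e-08), or 0.80 ± 0.12 without library 4. The 2 times were apart at 100 µM and overlapped at 0 µM. At 15 min every library with 100 µM was below every library with 0 µM, while the 360 min levels overlapped between concentrations. Megf10, an engulfment receptor (2.49 ± 0.34), Enoph1, of methionine salvage (2.30 ± 0.29), Cgas (1.27 ± 0.21), Lpcat1, a lysolipid acyltransferase (1.2 ± 0.18), and the kinase gene Prpf4b (0.77 ± 0.12) followed, with 2.55 ± 0.35, 2.46 ± 0.30, 1.11 ± 0.22, 1.17 ± 0.19 and 0.81 ± 0.13 in the same order without library 4. Megf10 was at 1.90 to 7.23 CPM at 15 min with 100 µM and at 27.1 to 45.0 CPM with 0 µM, so the groups already differed in level at 15 min. All 12 genes named for this difference had an adjusted p under 0.05 without library 4 as well. They were picked by the smallest p in the difference with library 4, so this is no separate support.

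In the list of 35 interferon-stimulated genes no difference was called without library 4. With it, 5 of 35 had a more positive change at 100 µM, and without it 0 of 35 passed. Over all genes 2.07% and 1.36% had a more positive change. At 0 µM, Rsad2 had 139, 137, 62.2 and 110 CPM at 360 min and 16.1, 24.4, 12.5 and 819 CPM at 15 min. The difference for Rsad2 was 5.80 ± 0.98 (adjusted p 7.1e-06) with library 4 and 2.19 ± 1.37 (adjusted p 0.45) without it. For Ifit1 it was 3.26 ± 0.68 and 1.18 ± 0.69 (adjusted p 0.41). Outside the list it was 3.99 ± 0.73 and 0.86 ± 0.76 (adjusted p 0.65) for Cxcl10 and 4.61 ± 0.82 and 2.22 ± 0.97 (0.21) for Cmpk2, while Cgas stayed called (1.11 ± 0.22 without library 4, adjusted p 0.00017). The 0 µM change in the list was 0 of 35 called with library 4 and 11 higher without it (1.84% of all genes higher), with a median of 0.13 and 0.95. Ifit1 then rose by 2.12 ± 0.50 and Cxcl10 by 2.61 ± 0.56 at 0 µM, next to 3.31 ± 0.51 and 3.47 ± 0.55 at 100 µM.

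At 25 µM 649 genes rose late (6.03%) and 797 fell (7.4%), and at 50 µM 555 rose (5.16%) and 764 fell (7.1%). Of the 1039 risers at 100 µM, 282 rose at 25 µM and 319 at 50 µM, and of the 1157 fallers 429 and 518 fell. Median changes at 0, 25, 50 and 100 µM were 0.05, -0.09, -0.37 and -0.88 for the BMP list and 1.01, 0.47, 0.36 and 0.11 for the adhesion and effector list. They were -0.11, -0.72, -0.73 and -0.72 for immediate early genes and -0.07, -0.24, -0.21 and -0.55 for sterol genes. For NRF2 genes they were 0.40, 0.33, 0.38 and 0.35, close to each other at every concentration. Without library 4 at 15 min the 0 µM medians of these lists, in the same order, were 0.17, 1.02, -0.12, -0.09 and 0.38. Smad6 changed by -0.31, -1.34, -2.0 and -2.72, and Mmp3 by 1.66, 0.89, 0.49 and -0.50, with 0 µM values of -0.24 and 1.65 without that library. No test of order over concentrations was made.

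**Figure D3:**
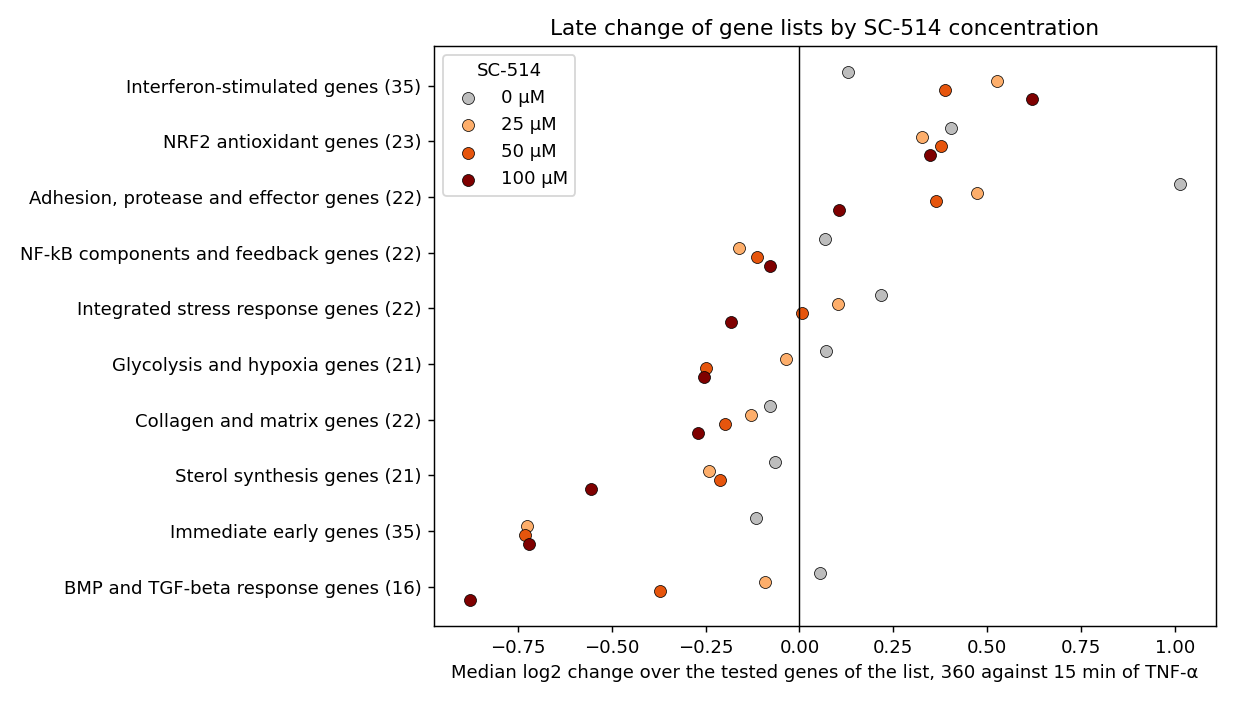
Median log2 change, 360 against 15 min of TNF-α, over the tested genes of 10 lists (number of genes in brackets) with SC-514 at 0, 25, 50 and 100 µM. BMP genes reach -0.88 at 100 µM, and adhesion genes lie at 1.01 at 0 µM and 0.11 at 100 µM. The interferon-stimulated point at 0 µM, 0.13, is 0.95 without library 4 at 15 min.

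Under IL-1β with 100 µM SC-514 the late change took in 1728 genes higher (16.1%) and 1483 lower (13.8%), 29.8% in all. Of the TNF-α risers 646 rose there too, 62.2% of the TNF-α list and 37.4% of the IL-1β list, and 729 genes fell under both, 63% and 49.2%. The changes differed in 359 genes (3.33%), 95 more positive (0.882%) and 264 more negative (2.45%) under TNF-α. RLE factors gave 132 and 209, or 89 and 309 without the 2 very shallow libraries. For 35 interferon-stimulated genes 16 rose under TNF-α and 21 under IL-1β, and 2 differed. Rsad2 rose by 4.86 ± 0.73 under TNF-α and 5.15 ± 0.74 under IL-1β, a difference of -0.29 ± 1.26.

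The NF-κB feedback genes set the stimuli apart, since 2 of 22 rose and 5 fell under TNF-α, 13 rose and 0 fell under IL-1β, and 10 differed, all more negative under TNF-α. Over all genes 16.1% rose under IL-1β and 2.45% had a more negative change under TNF-α. Nfkbia had 190, 158, 161 and 141 CPM at 360 min of TNF-α, and 733, 514, 686 and 691 CPM at 360 min of IL-1β. At 15 min it had 208 to 232 CPM under TNF-α and 172 to 297 CPM under IL-1β. The late levels did not overlap, and the changes of -0.44 ± 0.14 and 1.54 ± 0.14 differed by -1.98 ± 0.20 (adjusted p 3.7e-14). Nfkbie, for IκBε (-2.35 ± 0.25), Tnip1, which binds A20 (-1.81 ± 0.18), Rnf19b (-1.61 ± 0.16), Ptges, prostaglandin E synthase (-1.30 ± 0.15), and Oaf (-1.06 ± 0.12) differed in the same direction. The calls of Ptges (0.29 ± 0.11) and Rnf19b (-0.30 ± 0.11) within TNF-α were lost under 9 and 6 alternatives.

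Cxcl5 went the other way, at 123 to 202 CPM late and 47.4 to 67.6 CPM early under TNF-α, and 26.5 to 41.2 CPM late and 55.4 to 69.3 CPM early under IL-1β (difference 2.44 ± 0.33, adjusted p 1.2e-08). It rose under TNF-α and fell under IL-1β. Rasl11a, a small GTPase gene, fell under both, to 21.3 to 26.3 CPM under TNF-α and 5.68 to 14 CPM under IL-1β (2.30 ± 0.34). Trib2, a pseudokinase (2.26 ± 0.33), Tnrc18 (1.30 ± 0.18), Id1 (1.27 ± 0.20) and Fgfr1op, of the centrosome (1.22 ± 0.19), also had more positive changes under TNF-α. All 12 genes named for this difference kept their call under all alternatives run. They were picked by the smallest p in this same difference, so the kept calls are no separate support.

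**Figure D4:**
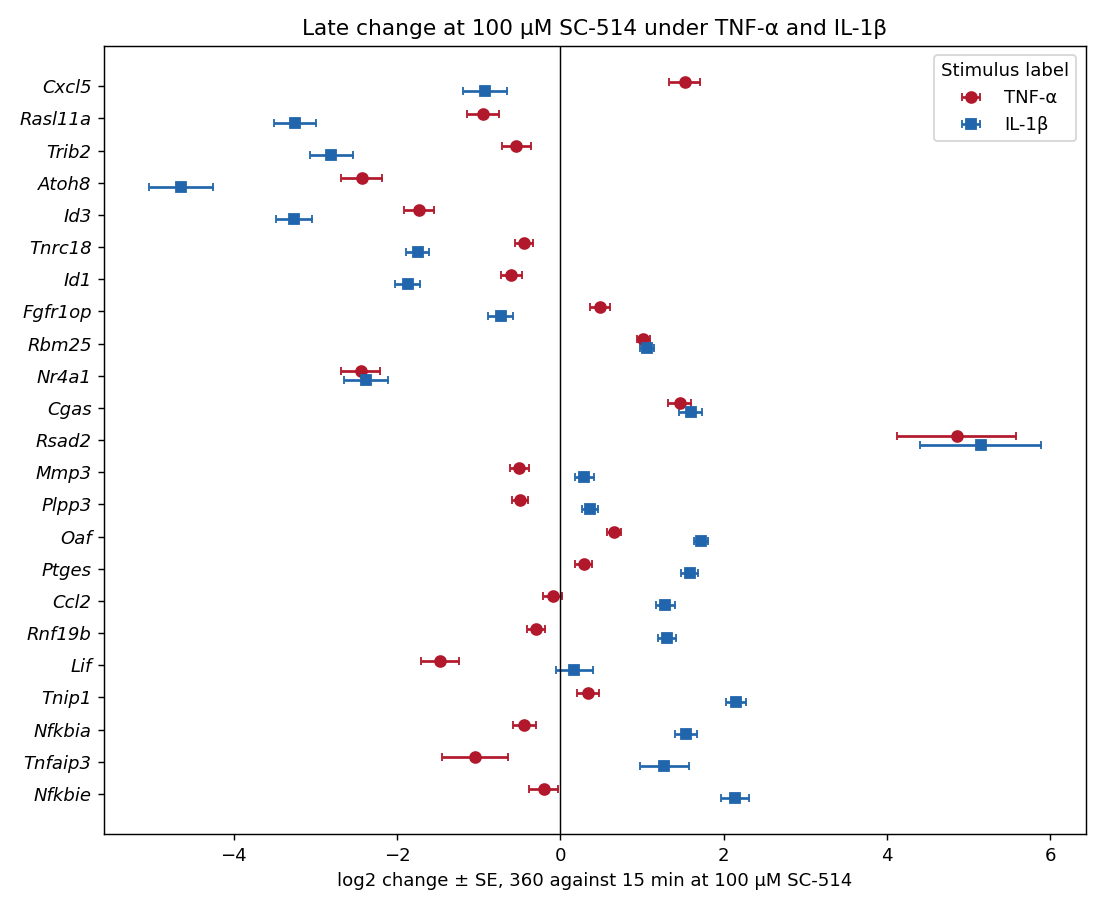
log2 change ± SE, 360 against 15 min with 100 µM SC-514, for 23 genes under TNF-α (circles) and IL-1β (squares), 4 libraries a group. Nfkbia lies at -0.44 under TNF-α and 1.54 under IL-1β, Cxcl5 at 1.52 and -0.92, and Rsad2 at 4.86 and 5.15.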

How the data were processed

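TagSeq counts were used for 41 groups of 4 libraries, one column of the deposited table each. The values are the authors' read counts per gene, with 22070 genes, checked to be whole numbers. Per the submitters' processing notes, Bowtie2 and GRCm38 (mm10) were used, and the counting tool is not given in the sources used here. Symbols and positions come from the GENCODE annotation of that build, and 212 identifiers, 29 of them tested, had no match there. Columns were joined to samples by the file column that each description names, and groups follow the stimulus label of that sample. The labels do not state if a group's 4 libraries are independent cultures, and p-values reflect a spread among libraries that may be technical. None of the 12 pairs of libraries within the 2 groups was identical, and chi-squared over degrees of freedom between them was 1.32 to 3.79. Intervals and floors cover counting error only.

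Genes passing filterByExpr (10766) were scaled with TMM factors and fitted in 1 robust quasi-likelihood model over all groups (edgeR 4.0.16, R 4.3.3), with 123 residual degrees of freedom. Changes are log2 with SE from the F statistic, and p-values were Benjamini-Hochberg adjusted over all genes tested, with 0.05 as the threshold. Alternatives were DESeq2 1.42.0, RLE factors, no filter, no shallow libraries, the 8 libraries alone, each library left out and a replicate block. RLE factors were also run without the shallow libraries. The numbers were taken to pair libraries only where deviations of all 4 same-numbered pairs correlated above 0.1, which held at 60 and 120 against 15 min. There the block gave 109 and 368 genes, against 93 and 292 without it, and moved neither count by over 1.5 times. The percentages by direction at these times are from the fit without the block.

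Named genes had an adjusted p under 0.05, at least 5 CPM in the higher group and no overlap between groups, without predicted, ribosomal protein and mitochondrial genes. They are the 12 largest rises and falls, 6 in each direction with the smallest p in the difference between concentrations and in that between stimuli, up to 4 members of each of 25 lists by adjusted p, and a few NF-κB targets. Nos2, Il15 and Cxcl2 were named for their low counts after their values were seen. Some genes that this rule names are not reported here. Members and lists were chosen with earlier results of these data known.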

Additional observations from a re-analysis of the deposited data

Results flagged for a closer look

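Of 288 sets of 4 libraries examined for the named genes, 7 held 1 library far from the other 3, and chance alone would single out about 1 in 20 sets. At 15 min of TNF-α with 100 µM SC-514 these were F3 at 336 CPM and Slc11a2 at 75.3 CPM in library 2, both the highest of their group, Olr1 at 6.02 CPM and Tnip1 at 53 CPM in library 4, also the highest, and Ptges at 134 CPM in library 1, the lowest. At 360 min they were Spock3 at 5.19 CPM in library 4 and Sqle at 95.4 CPM in library 3, the lowest of their groups.

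The late change under TNF-α differed between 100 and 0 µM SC-514, by a test of the difference itself, in the 12 genes named for it. It was more negative at 100 µM for Lif (-2.71), Id3 (-2.28), Mmp3 (-2.16), Skil (-1.97), Ccl9 (-1.39) and Plpp3 (-1.05), and more positive for Megf10 (2.49), Enoph1 (2.30), Cgas (1.27), Lpcat1 (1.2), Rbm25 (0.84) and Prpf4b (0.77), all on the log2 scale.

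The late change at 100 µM differed between TNF-α and IL-1β in 12 further genes by the same kind of test. It was more negative under TNF-α for Nfkbie (-2.35), Nfkbia (-1.98), Tnip1 (-1.81), Rnf19b (-1.61), Ptges (-1.30) and Oaf (-1.06), and more positive for Cxcl5 (2.44), Rasl11a (2.30), Trib2 (2.26), Tnrc18 (1.30), Id1 (1.27) and Fgfr1op (1.22).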

How the results depend on the processing

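Counts of called genes that moved by over 1.5 times were these. DESeq2 gave 769 falling genes at 100 µM (1157 with edgeR), 212 more negative at 100 than at 0 µM (350), and 62 more positive and 157 more negative under TNF-α than IL-1β (95 and 264). A replicate block gave 157 falling genes at 0 µM (93) and 170 more positive under TNF-α than IL-1β (95). At 30 min RLE factors gave 5 genes and no filter 34 (10). Leaving out 1 library gave 808 to 879 rising and 969 to 1084 falling genes at 100 µM, and 1705 to 1841 of the 2196 calls remained, with 0 reversed. It gave 148 to 211 and 294 to 349 for the difference between concentrations (148 without library 4 at 0 µM and 15 min), 55 to 108 and 191 to 329 for that between stimuli (55 without library 1 at 360 min and 63 without library 2 at 15 min of IL-1β), and 5 to 10 at 30 min (5 without library 1 or 4 at 15 min or library 1 at 30 min). By under 1.5 times, RLE factors turned the balance at 50 µM to 802 rising and 601 falling (555 and 764). Without the 2 shallow libraries they gave 528 and 828. The block gave 1249 rising and 1393 falling at 100 µM. Same-numbered libraries at 360 and 15 min of 100 µM correlated at 0.059 to 0.176, over 0.1 in 2 of 4 pairs and closest to their own number in 3, so they were not paired. Pairs over 0.1 numbered 3 of 4 at 25 µM and at 30 min, 2 at 50 µM and 1 at 0 µM and under IL-1β, and each library was closest to its own number at 25 and 50 µM and at 30, 60 and 120 min. Of the named genes at 100 µM the block added Birc5, Ccne2, Cdt1, Mars, Psmd7, Tars and Tnip1 and removed none. Causes of these shifts were not tested.

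With 1 library left out, signs turned for uncalled changes. At 100 µM Ccl2 ranged over -0.25 to 0.033 and Il6 over -0.62 to 1.12. At 0 µM the ranges were -0.33 to 2.12 for Ifit1, -0.20 to 2.46 for Ifit3, -0.23 to 2.61 for Ifit3b, -0.43 to 1.65 for Iigp1, -1.36 to 2.67 for Rsad2, -0.93 to 2.61 for Cxcl10, -1.06 to 1.71 for Cmpk2 and -1.17 to 1.65 for Cd274, each highest without library 4 at 15 min. Of 2154 values for the 144 named genes at 100 µM, 2021 kept direction and side of the threshold, 103 in 28 genes lost the call, 28 gained one and 2 reversed. At these depths 3 counts are 1.415 to 2.305 CPM, so changes of genes near that level, such as Plin4, Il15 and Cxcl2, rest on few counts.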
